A study of Arabidopsis thaliana with 60 samples.

Results

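The transcripts described here are the 176 probe sets, of 22746 on the array without controls, whose signal was higher than in the mock after 12 h with each of propiconazole, uniconazole, paclobutrazol, Brz220 and Brz91, called the azoles below. A probe set is a group of array probes for 1 transcript or a few related ones. For each azole the difference d was the mean of log2(intensity + 133) over its 2 arrays minus the same mean for the 12 h mock. A member had all 5 values of d at 0.3 or more and their mean at 0.6 or more, and 2 of the 178 probe sets that passed, for AT5G01740 and FDH, were left out by the rule. The 12 h azole values therefore chose the members, and are given as a description with no test.

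The study treated whole 7-day Arabidopsis thaliana seedlings of the accession Col-0, grown at 23 degrees, with 27 treatments of 18 compounds and measured RNA on ATH1 arrays. All groups were wild-type plants with 2 arrays each, 60 arrays in all. The labels sort them into F1 at 3 h, F2 at 12 h and G at 3 h, each with its own mock. Nothing in the labels tells if the 2 arrays of a group are separate cultures, so p-values cover only the spread between these arrays and that spread may be technical. At 12 h, F2 held the mock, the 5 azoles and prohexadione at 10 µM, and PNO8 at 1 µM. At 3 h, F1 held the mock, the 5 azoles at 10 µM, PNO8 at 1 µM, and prohexadione, 2,4,6T, PCIB, TIBA, NPA, AgNO3, AVG, CHX, MG132, ibuprofen, daminozide and salicylic acid at 10 µM. G held a mock, Brz220 at 3 µM and PNO8 at 10 µM.

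Propiconazole is a triazole fungicide that blocks a cytochrome P450 of sterol synthesis. Uniconazole and paclobutrazol are triazole growth retardants that block a P450 early in gibberellin synthesis, and Brz220 and Brz91 are used as inhibitors of brassinosteroid synthesis. Gibberellins and brassinosteroids are growth hormones that promote cell elongation in seedlings, and P450 inhibitors of this kind can act on more than 1 P450. Prohexadione blocks later, dioxygenase-catalysed steps of gibberellin synthesis.

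The platform annotation gave 1 gene for 89 of the 176 members, several genes for 3 and none for 84, so many of the brightest and most changed members are named by probe set only. The deposited intensities fall into 6 scaling sets, one for each bracket and replicate number, with 2% trimmed means of 1019.5 for replicate 1 and 1441.4 for replicate 2 at 12 h. Intensities are therefore compared within a replicate number. Of the 176 members, 160 passed the filter on dim probe sets and could be tested. The same number passed when the 12 h azole arrays were not counted. On both 12 h mock arrays, 64 members lay below the 40th percentile of the array. Tests are two-sided, from limma fitted to 17312 probe sets, with Benjamini-Hochberg adjustment, and differences are log2 differences ± SE with n = 2 arrays per group. With the scaling set as a block, the median 95% interval of such a difference over the probe sets tested narrowed from ±0.63 to ±0.42. Of the tissue markers, the leaf gene RCA lay between the 86.4th and the 99.5th percentile of its array and the root-hair genes EXPA7 and EXPA18 between the 35.9th and the 89th on all arrays. Of the 4 leaf and 3 root-hair genes on the lists these 3 have a named probe set, and of the 2 flower and 2 seed storage genes none has. Fewer cells of a type and less RNA per cell cannot be told apart in such samples.

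After 12 h the mean difference over the 5 azoles ran from 0.60 to 2.07 with a median of 0.72. It was 1 or more in 24 members, and 10 had all 5 differences at 1 or more. The median SD over the 5 azoles was 0.17, and since the rule asked for a difference with each azole nothing is read from this spread. The median was 0.84 with uniconazole, 0.80 with Brz91, 0.74 with propiconazole, 0.71 with Brz220 and 0.65 with paclobutrazol. Uniconazole gave the highest of the 5 values in 69 members, and paclobutrazol gave the lowest in 66. The leaf gene RCA, the activase of the carbon-fixing enzyme Rubisco, was at -0.44 ± 0.51 over the azoles (limma adjusted p = 1.0, and 0.756 with the block). It went opposite ways in the 2 scaling sets: 17329.9 in the mock against 2242.6 to 14259.4 with the azoles for replicate 1, and 17712.1 against 18865.0 to 42581.6 for replicate 2. EXPA7 was at -0.02 and EXPA18 at -0.20. The part of these markers in the members' values was not tested. In 146 members all azole arrays lay above the mock array of the same replicate number in both scaling sets. Among the 88 brighter members this held for 83, and among the 88 dimmer ones for 63. The rule itself favoured such members and the share over all probe sets was not computed, so nothing is read from these counts. Across the array, 0.919% of probe sets had a mean difference of 0.6 or more. The limma test of the 5-azole mean called 0.0809% of the tested probe sets higher, or 0.849% with the block. Since the rule used this contrast, nothing is read from these shares.

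**Figure D1:**
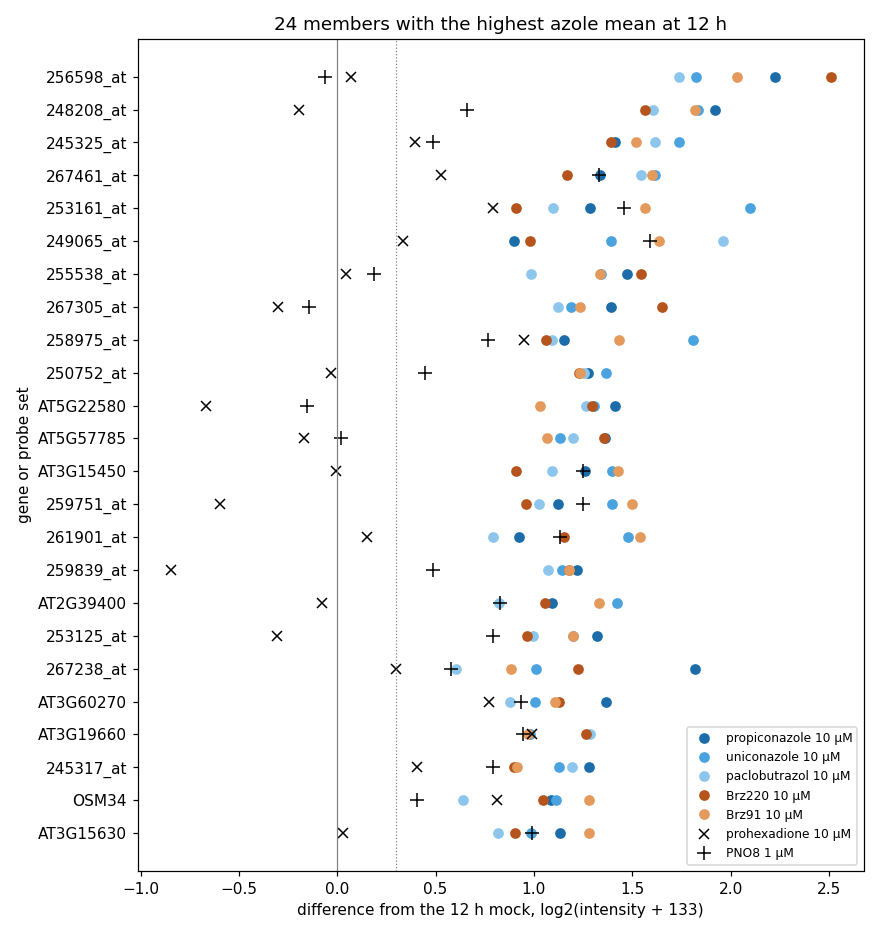
Difference from the 12 h mock in log2(intensity + 133) for the 24 members with the highest mean, each point the mean of 2 arrays of 1 group, for the 5 azoles, prohexadione and PNO8; the dotted line is at 0.3. The azole points of 256598_at lie between 1.74 and 2.51, while its prohexadione and PNO8 points lie at 0.07 and -0.06.

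The member with the highest mean was 256598_at, to which the annotation gives no gene. Its intensity on the 12 h mock arrays was 1140.4 for replicate 1 and 1494.8 for replicate 2. It was 5837.1 and 7457.7 with propiconazole, 3826.8 and 6435.5 with uniconazole, 3990.9 and 5447.3 with paclobutrazol, 6623.6 and 9788.1 with Brz220, and 4670.0 and 7084.0 with Brz91. Every azole array thus lay above both mock arrays. With prohexadione it was 1437.2 and 1319.6 and with PNO8 1053.2 and 1464.1, within the range of the mock or just outside it. The mean difference over the azoles was 2.07, from 1.74 with paclobutrazol to 2.51 with Brz220.

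The other 11 members with the highest means were 248208_at at 1.75, 245325_at at 1.54, 267461_at at 1.45, 253161_at at 1.39, 249065_at at 1.37, 255538_at at 1.33, 267305_at at 1.32, 258975_at at 1.31, 250752_at at 1.27, AT5G22580 at 1.26 and AT5G57785 at 1.22. The last 2 are the first with an annotated gene. AT5G22580, which encodes a small protein with a stress-responsive A/B barrel domain, had mock intensities of 3005.9 and 4862.0. Its azole arrays ran from 6032.7 to 9392.4 for replicate 1 and from 10076.2 to 11643.5 for replicate 2. With prohexadione it was 2412.5 and 2312.7, below both mock arrays. AT5G57785 had mock intensities of 2853.9 and 4751.3 and azole intensities from 5453.2 to 7900.5 for replicate 1 and from 9237.9 to 13404.2 for replicate 2. The groups did not overlap within a replicate number in either gene.

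Prohexadione and PNO8 at 12 h share the mock arrays that the rule used, so their values for the members are set beside those of the azoles without a test. The median difference of the 176 members was 0.57 with PNO8 and 0.31 with prohexadione, against 0.02 for both over all probe sets. With PNO8 145 members were at 0.3 or more, and with prohexadione 89, counts whose share over all probe sets was not computed. At 0.6 or more were 78 with PNO8, which is 44.3% against 2.15% of all probe sets. With prohexadione 36 were, which is 20.5% against 2.13%. At -0.6 or less were 0 with PNO8 and 4 with prohexadione, against 1.17% and 1.20% of all probe sets. The median held its side in each scaling set, at 0.57 and 0.56 with PNO8 and at 0.20 and 0.39 with prohexadione for replicates 1 and 2. Most members thus lay above this mock in the prohexadione and PNO8 groups too. A probe set with a low reading on these mock arrays passed the rule more easily. Part of this shift is therefore set in advance by the choice of members, and its size was not tested. The mean over the azoles exceeded the mean of prohexadione and PNO8 in 156 members, with a median excess of 0.30, and by 0.6 or more in 29. The rule used the azole side of this excess and its share over all probe sets was not computed, so these counts are a description only.

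**Figure D2:**
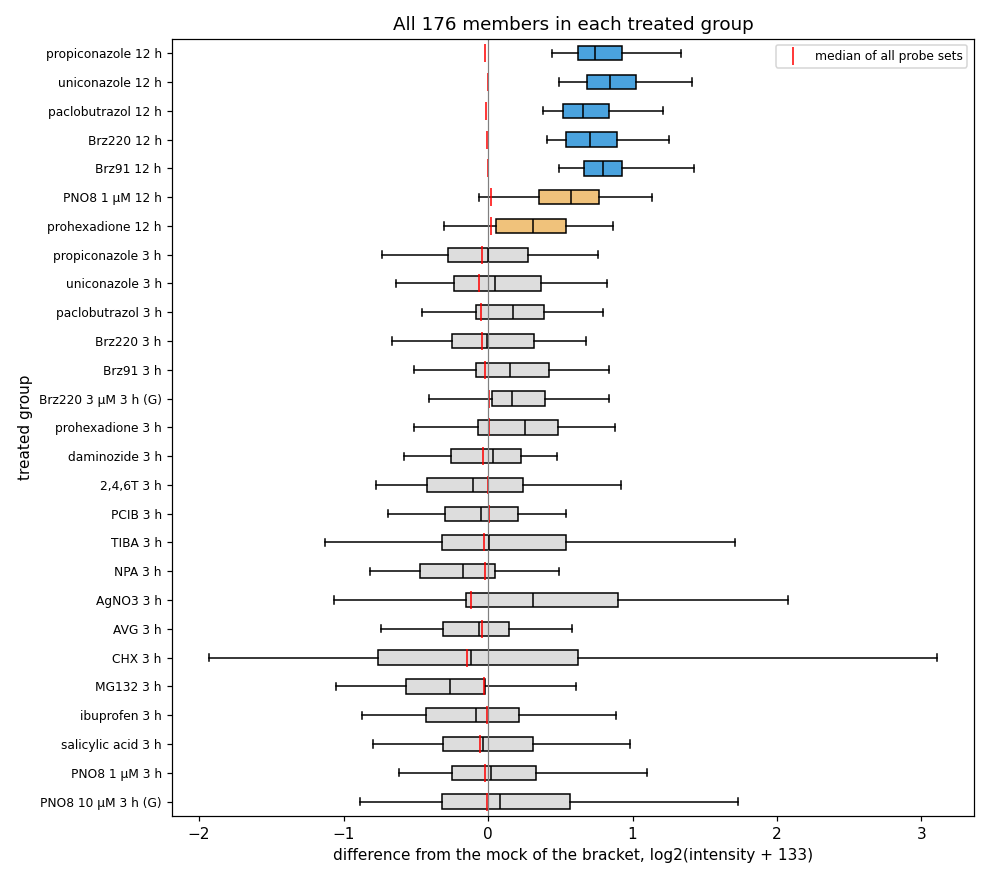
Distribution of the 176 members' differences from the mock of their bracket in log2(intensity + 133), for each treated group; the box spans the quartiles, the line is the median, the whiskers reach the 5th and 95th percentiles and red marks give the median of all probe sets. The 5 azole groups at 12 h have medians from 0.65 to 0.84, followed by PNO8 at 12 h with 0.57, while the azole medians at 3 h lie between -0.01 and 0.17.

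In 25 members every azole array lay above the mock, the prohexadione and the PNO8 array of the same replicate number in both scaling sets. They include 8 of the 12 with the highest means: 256598_at, 248208_at, 245325_at, 255538_at, 267305_at, 250752_at, AT5G22580 and AT5G57785. With an annotated gene they also hold AT1G44830, an AP2/ERF-type transcription factor gene, at 0.90, AT1G02360, a chitinase family gene, at 0.86, AT1G56220, a dormancy/auxin-associated family gene, at 0.73, and the drought-induced gene DI21 at 0.61. In contrast, 267461_at, 253161_at and 249065_at were at 1.33, 1.46 and 1.59 with PNO8, which is close to or above their azole means. The 25 were picked from the same 12 h values and carry no test. The share of all probe sets that lay apart in this way was not computed, so the count is a description only.

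The arrays taken after 3 h with the same compounds were not used by the rule and ask whether the members were already higher then. Across the 176 members the median difference of the 5-azole mean at 3 h was 0.06, against -0.04 over all probe sets, and 102 members were above 0. By limma 1 of 160 tested members rose, 256598_at, and 0 fell. The background was 0.0289% of tested probe sets called higher and 0.0173% lower. At an unadjusted p under 0.05 there were 24 members in either direction. The share of all tested probe sets at that threshold was not computed, so nothing is read from this count. With the scaling set as a block 9 members rose and 0 fell, against a background of 0.22% called higher and 0.277% lower. RCA was at -0.63 ± 0.51 at 3 h (limma adjusted p = 1.0, and 0.624 with the block), with 5 of 5 azole arrays below the mock for replicate 1 and 4 of 5 for replicate 2. EXPA7 was at -0.16 and EXPA18 at 0.01, and their part was not tested.

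At 3 h 256598_at had mock intensities of 985.6 and 953.6. Its azole arrays ran from 4562.4 with propiconazole to 5921.5 with Brz220 for replicate 1, and from 4243.1 with Brz91 to 5052.9 with Brz220 for replicate 2. All 10 azole arrays lay well above both mock arrays. The difference was 2.17 ± 0.22 (limma adjusted p = 1.09e-09), and the single azoles gave between 2.11 and 2.35, each ± 0.29, with adjusted p from 5.01e-07 to 1.25e-05. It was the one member called by limma in each azole at 3 h, where the background was 0.0231% called higher for propiconazole, 0.0289% for Brz91 and 0.0116% for each of the other 3. With the block the calls were 4 for propiconazole (background in either direction 0.191%), 4 for uniconazole (0.0982%), and 3 each for paclobutrazol (0.0462%), Brz220 (0.0982%) and Brz91 (0.225%). Against the F1 mock the 3 h difference of 256598_at was as large as its mean of 2.07 at 12 h. After rescaling to a common trimmed mean the F1 mock was at 9.94 and 10.18 in log2, and the azoles ran from 11.99 to 12.44. NPA at 10.88 and 10.74 and PCIB at 10.98 and 10.77 also lay above this mock, as did most other F1 compounds. CHX at 9.78 and 10.02 lay below it, and AVG at 10.22 and 9.86 on either side. The part of the mock's level in the 3 h difference was not tested.

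The other 8 members that rose at 3 h with the block were smaller. Probe set 267305_at had mock intensities of 1264.9 and 715.7 and azole intensities from 2563.4 to 3136.0 for replicate 1 and from 1725.6 to 2113.4 for replicate 2. The 2 mock arrays differ much in level, but within each replicate number the azole arrays did not overlap the mock. Its difference was 1.17, with an SE of 0.27 and a limma adjusted p of 0.108 without the block and an SE of 0.12 and an adjusted p of 2.59e-08 with it.

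Probe set 250752_at had mock intensities of 4930.1 and 4267.5 and azole intensities from 7726.0 to 9321.5 and from 7595.9 to 8644.5. The difference was 0.82 (limma adjusted p = 0.459, and 2.17e-05 with the block). AT5G22580 had mock intensities of 2949.1 and 1745.5 and azole intensities from 4020.1 to 5278.5 and from 2491.6 to 3994.1, with no overlap within a replicate number. Its difference was 0.70 (limma adjusted p = 1.0, and 0.0086 with the block). After rescaling to a common trimmed mean its log2 level was 11.39 and 10.97 in the F1 mock and 11.46 to 12.19 with the azoles. The G mock, at 12.51 and 12.47, lay above all of these. In F1, salicylic acid at 12.73 and 12.17 lay above every azole array of the same replicate number. It was the only other treatment at 3 h in which limma called this gene higher. Prohexadione at 11.81 and 11.59 and daminozide at 11.90 and 11.61 also lay above the F1 mock. NPA was at 11.09 and 11.04, and CHX lay below at 9.82 and 9.71. With the block 246389_at rose by 0.83 ± 0.19, 255538_at by 0.79 ± 0.19, AT5G57785 by 0.66 ± 0.15, 246284_at by 0.57 ± 0.12 and AT2G36950, a heavy-metal-associated domain gene, by 0.52 ± 0.13. Their limma adjusted p with the block ran from 0.0093 to 0.0452.

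Of these 9 members, 8 are among the 25 whose azole arrays lay above prohexadione and PNO8 at 12 h, and the exception is AT2G36950. That is 8 of 25 against 1 of 135 other tested members. The 25 were picked without the 3 h arrays, but they hold 8 of the 12 members with the highest 12 h means. The 25 and the 135 were not matched for size of response or spread between arrays. The part of these in the contrast was not tested. The median 3 h difference was 0.37 in the 25 and 0.04 in the other 151, and 21 of the 25 were above 0. Of the 12 members with the highest 12 h means, the other 6 were not called at 3 h in either fit. Of these, 258975_at was at 0.77 ± 0.33, 245325_at at 0.37 ± 0.25, 249065_at at 0.25 ± 0.33, 248208_at at 0.03 ± 0.25, 253161_at at -0.16 ± 0.30 and 267461_at at -0.84 ± 0.35.

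**Figure D3:**
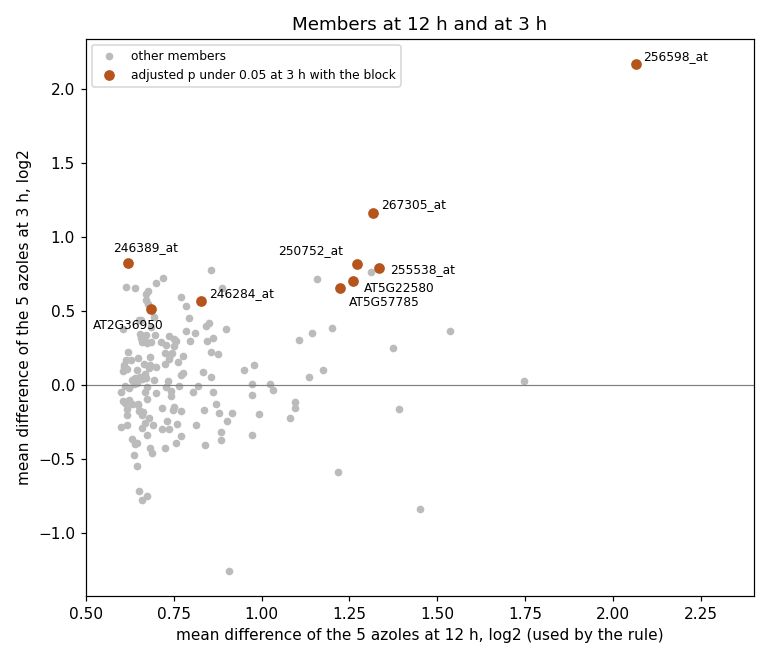
Mean difference over the 5 azoles at 3 h (y axis) against 12 h (x axis) in log2(intensity + 133) for the 176 members, with the 9 members called at 3 h with the block marked. 256598_at lies apart at 2.07 and 2.17, and most members lie near 0 at 3 h.

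**Figure D4:**
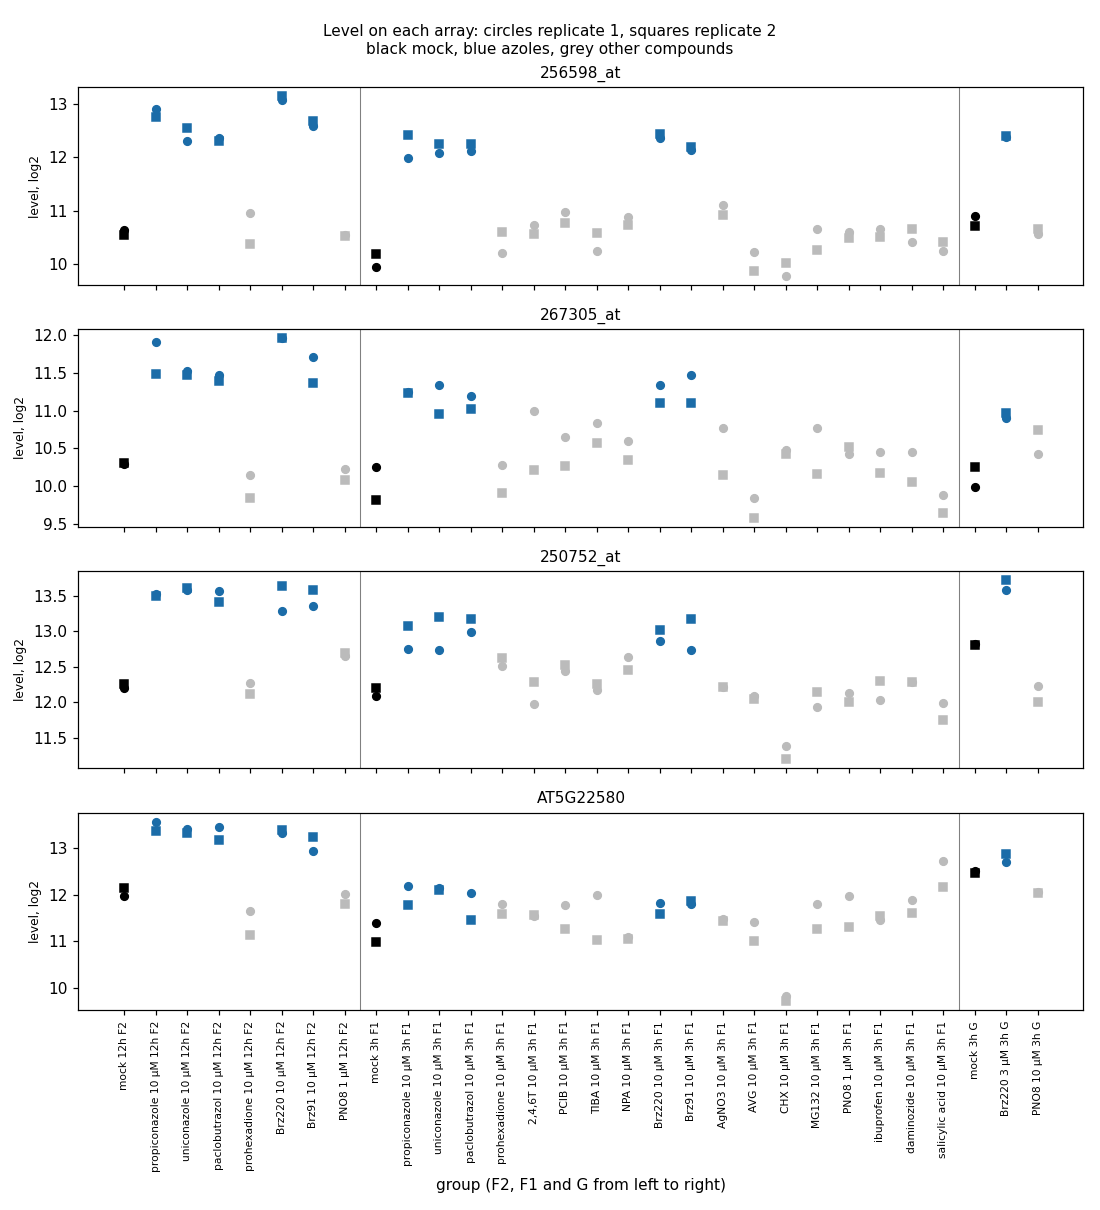
Level of 4 members in log2(intensity + 133) on each array of every group, after the arrays were rescaled to a common 2% trimmed mean; circles are replicate 1 and squares replicate 2, and vertical lines part F2, F1 and G. In 256598_at the azole arrays lie above the mock arrays at 3 h and at 12 h, and the prohexadione and PNO8 arrays at 12 h lie near the mock.

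Brz220 was also given at 3 µM in G, with its own mock, which makes it a check on arrays of another bracket. There 256598_at had mock intensities of 1836.8 and 1487.9 and Brz220 intensities of 5353.3 and 5116.4, so the groups did not overlap. It rose by 1.59 ± 0.29 (limma adjusted p = 0.0134), the 1 member called, against a background of 0.0116% higher. The call was lost when any 1 of the 4 arrays was left out. With the block 267305_at rose by 0.81 ± 0.15 and 250752_at by 0.84 ± 0.14 as well, against a background of 0.0404% higher. Of the 9 members called at 3 h in F1 with the block, 8 had a positive difference at 3 µM, but so did 136 of all 176. The median of the 176 was 0.16, against 0.004 over all probe sets. The difference between 10 µM in F1 and 3 µM in G was taken with each dose against its own mock. It passed for 0 of the tested members and for 0% of all tested probe sets in either fit. By limma 9 members had an unadjusted p under 0.05, a count whose share over all tested probe sets was not computed. For 256598_at the difference between the doses was 0.76 with a 95% interval from -0.06 to 1.58.

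The azoles can be compared with each other at 3 h and 10 µM. None of the 160 tested members was called in any of the 10 pairs by limma with or without the block. Without the block 1 to 22 members per pair had an unadjusted p under 0.05. The share over all tested probe sets was not computed at that threshold, so nothing is read from these counts. Over all tested probe sets 0% were called, apart from 0.0116% for propiconazole against paclobutrazol with the block. For 256598_at the largest difference between a pair was 0.23, and the 95% intervals over the 10 pairs ran at most from -0.81 to 0.81, or from -0.58 to 0.57 with the block. For 267305_at the largest was 0.18, with intervals from -0.88 to 0.83. Differences of these sizes between compounds were thus not detectable with 2 arrays per group.

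By known role, 28 members with an annotated gene were grouped after their values had been seen. The 6 genes grouped under carbon, nitrogen and energy metabolism had 12 h azole means from 0.62 to 0.74. AKINBETA1, a beta subunit of the SnRK1 kinase that responds to low energy, had mock intensities of 1130.0 and 1317.4 and azole intensities from 1555.1 to 2525.6 for replicate 1 and from 2057.5 to 2504.2 for replicate 2. PNO8 gave 1975.6 and 2276.2, inside the azole range, and prohexadione 1175.7 and 2209.6. IVD, which breaks down leucine, had 493.1 and 641.9 in the mock, 599.8 to 1021.9 and 1018.5 to 1332.7 with the azoles, and 637.0 and 881.2 with PNO8.

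AAH, which releases nitrogen from purine breakdown products, had an azole mean of 0.74 and was at 0.85 with PNO8. PPDK, which makes phosphoenolpyruvate from pyruvate, was at 0.67 and 0.58. GAT1_2.1, a glutamine amidotransferase-like gene, was at 0.64 and 0.62, and the vacuolar processing protease gene GAMMA-VPE at 0.66 and 0.35. GAMMA-VPE was counted in this group and enters its medians, although a protease is not an enzyme of energy metabolism. The group's median was 0.67 with the azoles, 0.60 with PNO8 and 0.27 with prohexadione. At 3 h their azole means lay between -0.40 and 0.22.

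The 9 stress and defence genes had azole means from 0.61 to 1.26 at 12 h. OSM34, an osmotin-like protein gene, had mock intensities of 1034.6 and 1221.7 and azole intensities from 1314.6 to 2726.7 and from 2510.7 to 3123.1. Prohexadione gave 2365.5 and 1819.2 there, within the azole range for replicate 1. EFR, the receptor kinase for a bacterial elongation factor, was dim, with 14.4 and 16.3 in the mock and 57.6 to 213.7 and 95.7 to 268.8 with the azoles, so its difference of 0.90 rests on low signal. The salt-induced SIS was at 0.88, AT5G45060, a TIR-NBS-LRR type resistance gene, at 0.97, AT3G62550, a universal stress protein gene, at 0.77 and AT1G17860, a Kunitz trypsin inhibitor gene, at 0.65. AT5G22580, AT1G02360 and DI21 belong both to this group and to the 25.

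Among 6 genes of redox, P450 and sulfur metabolism the means ran from 0.62 to 0.98. STR18, a sulfurtransferase, was the highest, with 1321.9 and 1733.3 in the mock and 2326.7 to 3033.7 and 3054.9 to 4230.8 with the azoles. Of the P450 genes, CYP71B22 had a mean of 0.74 and CYP718 of 0.72, the latter from 0.37 with Brz91 to 1.45 with uniconazole. The 7 hydrolase genes ran from 0.61 to 1.14. AT2G39400, an alpha/beta hydrolase gene, had mock intensities of 400.2 and 579.8 and azole intensities from 778.6 to 1568.6 and from 1159.2 to 1472.3. PNO8 gave 870.9 and 1059.0, which lay above the mock, and prohexadione 318.7 and 620.5, which did not in replicate 1. AT5G22580 is the gene of the 28 that was called at 3 h with the block.

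**Figure D5:**
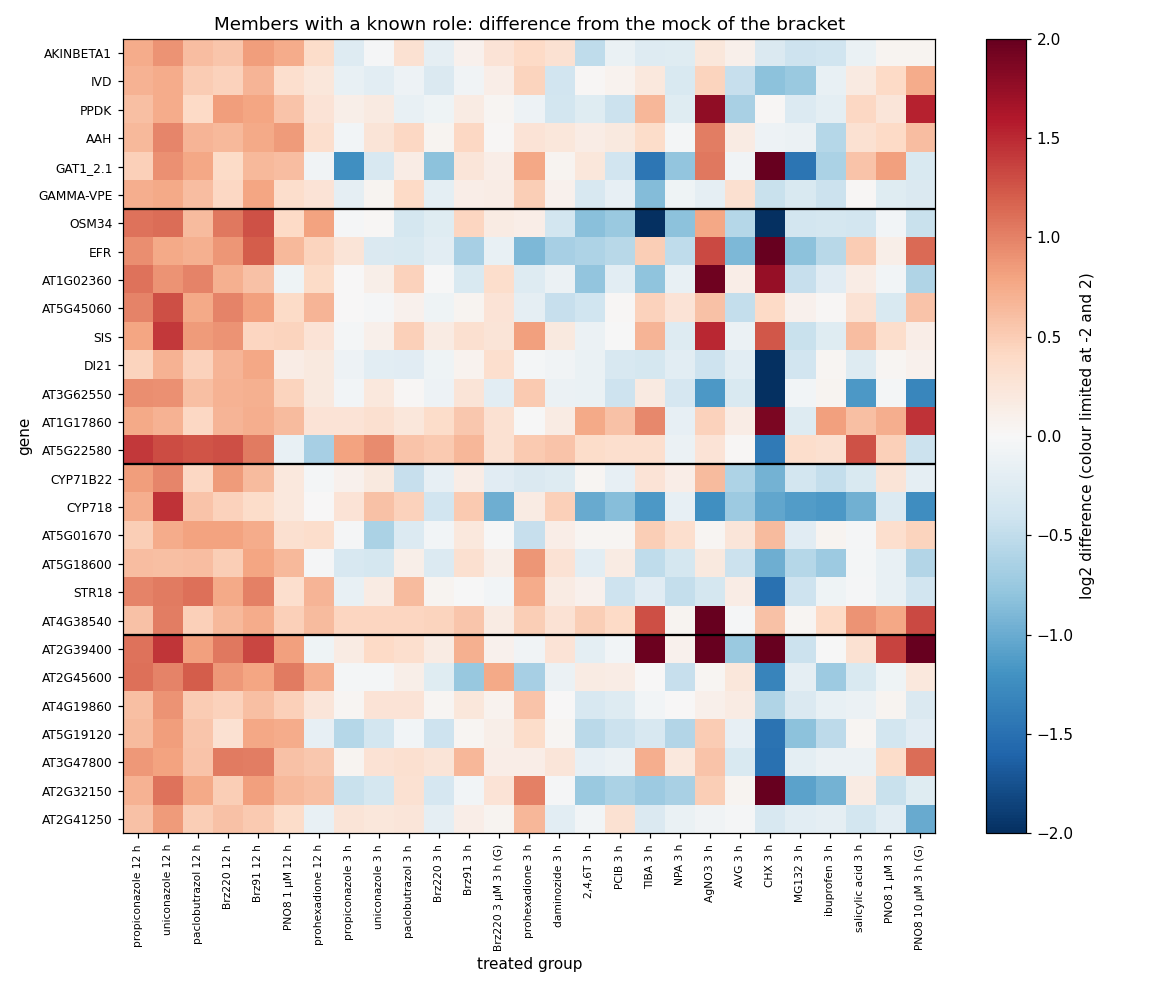
Difference from the mock of the bracket in log2(intensity + 133) for the 28 members grouped by role (rows), in the azoles and other groups (columns); the colours stop at differences of 2 in either direction. The 12 h azole columns are positive throughout because the rule required it. At 3 h AT2G39400 is at 2.78 with AgNO3 and OSM34 at -2.20 with TIBA.

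The other compounds at 3 h show how the members responded to treatments that the rule did not use. With AgNO3, an inhibitor of ethylene action, 37 of 160 tested members rose and 6 fell by limma, which is 23.1% higher against 6.78% of all tested probe sets, and 3.75% lower against 5.12%. The median difference was 0.31 over the 176 members and -0.12 over all probe sets. The total of 43 was 26 without AgNO3 replicate 1. With the block 57 rose and 15 fell, against 11.7% and 15.9%. AT4G01870, a TolB-related gene, had mock intensities of 2494.5 and 1361.4 and AgNO3 intensities of 21459.6 and 17581.4, and rose by 3.303 ± 0.402 (limma adjusted p = 1.79e-09). AT2G39400 went from 863.8 and 559.4 to 7999.3 and 3844.1, a difference of 2.78 ± 0.31 (limma adjusted p = 1.07e-10). Both genes lay far above the mock on both arrays.

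TIBA, an inhibitor of auxin transport, raised 21 members and lowered 8, which is 13.1% higher against 3.21% of all tested probe sets, and 5.0% lower against 2.18%. The total of 29 was 19 without TIBA replicate 1. With the block 33 rose and 14 fell, against 6.48% and 7.31%. AT5G61820, a stress up-regulated Nod 19 type gene, rose from 2274.0 and 1962.2 to 18062.3 and 15670.9, a difference of 2.92 ± 0.29 (limma adjusted p = 7.20e-12). OSM34 fell from 2921.7 and 1743.8 to 425.3 and 352.1, a difference of -2.20 ± 0.35 (limma adjusted p = 2.82e-06), below both mock arrays.

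PNO8 at 10 µM in G raised 24 members and lowered 3, which is 15.0% higher against 3.47%, and 1.88% lower against 1.2%. The total of 27 was 16 without PNO8 replicate 1 and 14 without G mock replicate 2. With the block 37 rose and 12 fell, against 7.14% and 7.34%. At 1 µM in F1 PNO8 raised 9 and lowered 0, against 0.583% higher and 0.0924% lower. These 9 calls fell to 4 without PNO8 replicate 1 and to 3 without either PNO8 replicate 2 or F1 mock replicate 2. With the block 12 rose and 3 fell, against 1.4% and 0.791%. The difference between the effects at 10 µM and 1 µM passed for 1 member higher and 1 lower by limma, against 0.595% and 0.104%. With the block 11 were higher and 2 lower, against 1.91% and 1.12%. The doses were given in different brackets, so dose and bracket cannot be told apart. AT2G36950 had 1424.7 and 1628.5 in the G mock and 8720.2 and 9800.6 with 10 µM PNO8, a rise of 2.50 ± 0.28 (limma adjusted p = 4.20e-10).

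CHX, which stops protein synthesis, moved members both ways: 34 rose and 40 fell, which is 21.3% higher against 14.7% of all tested probe sets, and 25% lower against 20.8%. With the block 42 rose and 49 fell, which is 26.3% against 18.9% and 30.6% against 35.5%. The falls were thus near or below the background. The 3 largest rises were in 262092_at at 5.18 ± 0.29, AT2G23680, a cold acclimation WCOR413 family gene, at 4.89 ± 0.33, and 255177_at at 4.80 ± 0.35. The 3 largest falls were in AT3G62550 at -3.69 ± 0.46, AT5G57785 at -3.07 ± 0.31 and 267461_at at -2.76 ± 0.45. All 6 have limma adjusted p of 8.54e-07 or less. AT5G57785 was at 263.2 and 263.5 with CHX, against 3276.6 and 3118.4 in the mock. It also fell with AgNO3 by 1.14 ± 0.31 and with TIBA by 1.06 ± 0.31 (limma adjusted p = 0.0063 and 0.024).

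Salicylic acid raised 8 and lowered 2, against 2.12% higher and 0.531% lower. The total of 10 was 6 without salicylic acid replicate 2. With the block 15 rose and 10 fell, against 5.54% and 4.81%. 2,4,6T raised 3 and lowered 1, against 0.381% and 0.173%. Ibuprofen raised 2 and lowered 2, against 0.156% and 0.0866%, and MG132 raised 1 and lowered 1, against 0.121% and 0.0751%. AVG lowered 2, against 0.0982% of tested probe sets lower. With 1 array left out these small counts moved between 1 and 5 for 2,4,6T, 0 and 5 for ibuprofen, 0 and 6 for MG132 and 1 and 2 for AVG. With the block the calls in either direction were 11 for 2,4,6T (background 1.99%), 15 for ibuprofen (2.28%), 13 for MG132 (1.73%) and 7 for AVG (0.56%). NPA, PCIB, prohexadione and daminozide gave 0 calls by limma, against 0.0347%, 0.0462%, 0.0173% and 0% of all tested probe sets. At an unadjusted p under 0.05 they had 19, 14, 16 and 4 members. The share over all tested probe sets was not computed there, so nothing is read from these 4 counts. With the block NPA gave 2 (0.22%) and PCIB 3 (0.237%). Over the 14 other treatments at 3 h, 61 of 160 members rose in at least 1 by limma, which is 38.1% against 18.6% of all tested probe sets. In at least 1 of them 46 fell, which is 28.7% against 23.6%, and 60 were called in none, which is 37.5% against 58.9%. AT4G01870 and AT5G61820 each rose in 7, AT2G23680 and 261564_at in 6, and AT2G36950 and AT2G39400 in 5. These comparisons in F1 share the mock arrays. The member with the highest azole mean, 256598_at, rose with AgNO3 by 0.95 ± 0.29 (limma adjusted p = 0.018) and was not called by limma in the other 13.

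Prohexadione and PNO8 at 12 h can be tested against each other without the mock. By limma 259751_at was lower with prohexadione, at -1.85 ± 0.33 (adjusted p = 0.0013), and no member was higher, against 0.0404% lower and 0.0347% higher. The call was lost without PNO8 replicate 2. With the block 259839_at, AT1G23390 and 250777_at were lower too, against 0.15% lower. These 4 were named after their values were seen, and 2 of them, 259839_at and 250777_at, are among the 25.

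The members also varied between mocks of 1 time. With all arrays rescaled to a common trimmed mean, 28 members were higher in G mock arrays than in F1 mock arrays and 3 were lower, which is 17.5% higher against 3.22%, with 1.85% lower. The total of 31 was 11 without the rescaling. Probe set 253161_at differed by 2.13, 259751_at by 2.08 and SIS by 1.78, and these 3 were picked for their size. Of the members called at 3 h, AT5G22580 differed by 1.31, 256598_at by 0.74 and 250752_at by 0.66 (limma adjusted p = 0.000748, 0.0058 and 0.0068). The labels give no other difference between the 2 mocks, and its part in the results was not tested.

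Lists of hormone and metabolic genes had few members that the annotation names. None of the 10 brassinosteroid synthesis, 10 gibberellin synthesis or 16 sterol synthesis genes on the lists has a named probe set. Of all list genes 18 were tested, and the background of the azole mean was 0.0809% higher by limma at 12 h and 0.849% with the block, so counts of 0 among a few genes say nothing particular about a list. EXO, a brassinosteroid-induced gene, was at -0.46 over the azoles at 12 h and -0.58 at 3 h, and passed in neither fit (limma adjusted p with the block 0.139 and 0.0747). The gibberellin receptor genes GID1A, GID1B and GID1C were at 0.02, 0.36 and -0.12 at 12 h, and with XERICO 0 of these 4 tested genes passed at either time. Of 21 sugar starvation genes 3 were measured, of which AKINBETA1 and IVD are members and MCCA, of leucine breakdown, was at 0.41. Of 6 detoxification genes tested 0 passed, their median being 0.24 at 12 h against -0.01 over all tested. Over all lists 0 of 18 genes passed in the 12 h azole mean by limma, and 3 of 18 passed with the block: AKINBETA1, IVD and the auxin-conjugating GH3.5 at 0.48 (limma adjusted p with the block 0.0311). The members among them were chosen by this contrast and lend it no support.

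The 89 members with 1 gene lay on chromosomes 1 to 5 as 21, 16, 19, 9 and 23, and 1 was plastid-encoded, close to the shares of all named probe sets. The 1 pair of adjacent genes among them was P1R1 and AT5G57785. At the mean threshold AT2G06430 lay just inside at 0.60, with 259681_at and 266052_at, and AT5G18470 just outside at 0.599, with 264788_at and 250818_at. For the lowest of the 5 differences 246389_at, 262108_at and AT4G01870 lay just inside, from 0.303 to 0.304, and AT5G43450, 259058_at and AT4G08740 just outside, from 0.277 to 0.297.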

How the data were processed

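Array intensity values on a linear scale were deposited by the authors. The submitters' processing notes name MAS5 as the tool, and which version was used is not given in the sources used here. Each table column matched 1 of 60 samples, and 0 columns were left unused. The pseudocount of 133 is each array's 20th percentile, taken as a median over arrays and rounded, and it shrinks the differences of dim probe sets. Dim probe sets, with fewer than 2 arrays above the 40th percentile, were not tested, leaving 17312 of 22746; 64 control probe sets were left out. Group means of all arrays were fitted with limma 3.58.1 (R 4.3.3) with a variance trend and a threshold of 0.05; 2 arrays per group set the precision. The deposited values hold 6 scaling sets (bracket by replicate number), which were tested as a replicate block. Deviations of arrays with the same number correlated with r from -0.09 to 0.31 in F1, 0.03 to 0.35 in F2 and -0.01 to 0.02 in G. With the block the median residual SD fell from 0.31 to 0.21. Whether the numbers also pair the samples cannot be told from these values. The sets are seen only in the scaling of the deposited values, and the labels do not name them as a batch. The blocked values stand beside results they change. In simulated data for the azole mean at 3 h on 17312 probe sets the fit without the block recovered 7.46% of changes of size 0.6, 52.2% of size 1 and 98.5% of size 2, with 3 false calls among 108. The simulated noise was independent between arrays, with the spread of the fit without the block. In the real data the offset between scaling sets is shared by arrays of the same number, so these rates need not hold there.

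Gene names come from the platform annotation table and TAIR10.1 names. The members, lists, roles and tests were chosen with earlier results of these data known. Named members are the 12 with the highest 12 h mean, those called at 3 h, the 3 nearest each side of a threshold, the 3 highest and 3 lowest calls in other compounds, and list members; the role groups and the other named members were added after values were seen. No sequences were analysed here.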

Additional observations from a re-analysis of the deposited data

Results flagged for a closer look

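PNO8 was given at 1 µM in F1 and at 10 µM in G, and a test of the difference between the effects, each against its own mock, singled out 2 members. AT2G39400 differed by 1.80 ± 0.44 (limma adjusted p = 0.0227), with a rise of 3.15 ± 0.31 at 10 µM and of 1.35 ± 0.31 at 1 µM. The other, 264842_at, differed by -2.40 ± 0.57 (limma adjusted p = 0.0182), the effect being lower at 10 µM. The background was 0.595% of tested probe sets higher and 0.104% lower, and 1 of 160 members was called in each direction. With the block 11 members were higher and 2 lower, against 1.91% and 1.12%.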

How the results depend on the processing

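The number of members depends on the signal scale and on single arrays. It was 732 with a pseudocount of 16, which contains the 176, 208 with quantile normalization and 200 with rescaling to a common trimmed mean (173 shared each), 375 on replicate 2 alone (121 shared), 394 on replicate 1 alone (105 shared) and 55 with thresholds of 0.4 and 0.8. With the replicate block, members called numbered 9 higher in the azole mean at 3 h, 4 with propiconazole and uniconazole, 3 with paclobutrazol, Brz220, Brz91 and Brz220 at 3 µM, 11 with 2,4,6T, 3 with PCIB, 47 with TIBA, 2 with NPA, 72 with AgNO3, 7 with AVG, 13 with MG132, 15 with PNO8 at 1 µM, 15 with ibuprofen, 25 with salicylic acid, 49 with PNO8 at 10 µM 4 for prohexadione against PNO8 and 13 for the difference between the PNO8 doses, against 2 without it, and 3 list genes passed at 12 h. With CHX it was 91, against 74 without the block. With quantile normalization these were 4, 3 for each azole, 2 for Brz220 at 3 µM, 9 with 2,4,6T, 3 with PCIB, 65 with AgNO3, 5 with AVG, 6 with MG132, 14 with PNO8 at 1 µM, 12 with ibuprofen, 22 with salicylic acid, 45 with PNO8 at 10 µM, 3 for prohexadione against PNO8 and 2 list genes. With both 3 h mocks as the control, 10 members were higher and 7 lower in the azole mean, and the G mock differed from the F1 mock in 11 without rescaling. The cause of these shifts was not tested. With each array left out in turn, counts ran from 1 to 2 for the azole mean and for propiconazole, 1 to 5 for 2,4,6T, 19 to 27 for TIBA, 26 to 45 for AgNO3, 1 to 2 for AVG, 55 to 71 for CHX, 0 to 6 for MG132, 3 to 8 for PNO8 at 1 µM, 0 to 5 for ibuprofen, 6 to 12 for salicylic acid, 14 to 22 for PNO8 at 10 µM, 0 to 1 for prohexadione against PNO8, and were 0 for Brz220 at 3 µM. Of 192 values of named members at 3 h under these alternatives, 180 kept their side of the threshold, 12 crossed to significance and 0 reversed. Among members, 64 lay below the 40th percentile on both 12 h mock arrays, where signal over background limits what a difference can show.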
